A study of Caenorhabditis elegans with 2 samples.

Results

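The X chromosome of Caenorhabditis elegans was examined as the 17719 bins of 1 kb that the deposited small RNA coverage table gives for it, all of those bins being used, out of 100257 bins over chromosomes I to V and X. The left arm and the right arm of X were taken as the outer 30% at each end, with 5316 bins each, and the 7087 bins between them as the middle. The table holds 1 library of small RNA pulled down together with HRDE-1 (called coIP here) and 1 library of small RNA from the wild-type strain N2, both from young adult hermaphrodites. In the labels' protocols, HRDE-1 carried FLAG and StrepII tags and was bound to an anti-FLAG resin from a lysate of ground adults. The labels name the strain of the first library only as HRDE-1-coIP, do not say whether untagged HRDE-1 was still present, and carry the same pull-down text for both libraries, so whether N2 was prepared as total small RNA or through the resin is not known. Each library is a pool of many whole animals, so that a level cannot be assigned to a tissue, and fewer cells of a type and less RNA per cell cannot be told apart.

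HRDE-1 is a nuclear Argonaute of the germline that carries small interfering RNAs made by RNA-dependent RNA polymerases and silences the loci they match, in some cases over generations. Its best known targets are retrotransposons and other repeats. The arms of worm autosomes are known to be richer in repeats and in repressive histone methylation than their middles, and on X this division is known to be less marked. The X is also known to be largely silent in the hermaphrodite germline and to hold few of the genes that the germline uses.

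The bins of the whole table held 4832791 coIP and 2161948 N2 read equivalents, a unit obtained by subtracting the floor of 0.1 that every deposited value carries and dividing by the value of 1 read. They are not whole counts: many values are not whole multiples of 1 read, and how reads with several sites were treated is not stated. With 1 library per group no difference could be tested, and no p-value is given for any of them. The 5 autosomes in the same libraries serve as the measure of how far chromosomes differ. They share the libraries and are not replicates. Intervals of shares and ratios are exact, at 95%, and take read equivalents as if they were counts. They cover no more than counting error, and copies of a molecule made by PCR are not independent.

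X held 722814 coIP and 254751 N2 read equivalents. That was 14.96% of the coIP (14.92 to 14.99, exact binomial) and 11.8% of N2 (11.7 to 11.8), where X has 17.7% of the bins. The N2 share rested in part on 1 bin, X 13144001 to 13145000, which held 21.3% of the N2 signal of X. Without it X held 14.9% of the coIP and 9.51% of N2. Without the 10 highest bins of each library on any chromosome, X held 14.7% of the coIP and 15.7% of N2, so the order of the 2 shares turned.

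X was the chromosome with the largest share of empty bins. In the coIP 28.95% of X bins were at the floor, against 13.997% to 25.8% over the 5 autosomes, and in N2 55.2% of X bins were at the floor, against 32.7% to 50.7%. Chromosome V was the nearest to X in both libraries. Bins with over 100 reads made up 4.35% of X in the coIP, against 4.82% to 6.93% on the autosomes, and 1.28% of X in N2, against 1.30% to 1.64%. The empty bins and the strong bins of X were not spread evenly along it.

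The coIP signal of X lay at its ends. The arms of X held 84.1% of the coIP signal of X and 79.95% of the N2 signal of X, while the arms of the single autosomes held 60.2% to 75.5% of their coIP signal and 43.4% to 60.6% of their N2 signal. Without the highest N2 bin the arm shares of X were 83.96% in the coIP and 74.5% in N2. The low N2 arm shares of some autosomes also rested on a few bins. Without the 10 highest bins of each library on any chromosome, the arms of X held 74.3% of the N2 signal of X. The arms of V then held 17.2% of all N2 signal and V as a whole 21.7%, a larger part than on X. The left arm held 40.2% of the coIP signal of X and the right arm 43.9%. In N2 the right arm held 51.2% and the left arm 28.7%, but without the highest N2 bin the right arm held 38.0% and the left arm 36.5%, so that 1 bin made nearly all of the excess of the right arm in N2.

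Per length and with the library sums, the arms of X were within the range of autosome arms and the middle of X was below every autosome middle. In the coIP the arms of X held 11826 ppm per Mb (parts of 1000000 of the library for each Mb), against 11886 ppm per Mb in the arms of all autosomes together, where the single autosomes ran from 8727 to 16050. The middle of X held 3363 ppm per Mb of the coIP, against 7929 ppm per Mb in autosome middles, whose lowest was 5207 on V. N2 gave the same order, with 3333 ppm per Mb in the middle of X against 6160 to 26175 over the middles of the 5 autosomes. In N2 this order rested in part on a few bins. Without the 10 highest bins of each library, the middle of X held 4.04% of N2 in 7087 bins. The middle of V then held 4.51% in 8368 bins, so per length X was not below V. The N2 density of the X arms was 8861 ppm per Mb. How the 2 libraries compare within X depends on the scaling. With the library sums the middle of X held 2.38% of the coIP and 2.36% of N2, but without the 10 highest bins of each library it held 2.51% and 4.04%. The arms of X held 12.6% and 9.42% with the library sums, and 12.2% and 11.7% without those bins.

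Shares of occupied bins, which single high bins cannot move, were lower on X than on the autosomes even in the arms. Bins with over 10 coIP reads made up 18.9% of X arms and 10.2% of the X middle, against 28.1% of autosome arms and 29.3% of autosome middles. Bins with over 10 N2 reads made up 7.39% of X arms and 4.46% of the X middle, against 10.9% and 14.6% of autosome arms and middles. Autosomes therefore had about as large a share of coIP-occupied bins in the middle as in the arms, and X did not. When each chromosome was cut into 20 segments of 5% of its length, X had a lower share of bins with over 10 coIP reads than every autosome in 15 segments and was above all autosomes in 0. These 15 included all 8 segments of the middle. In N2 X was below every autosome in 14 segments, again with all 8 of the middle.

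**Figure D1:**
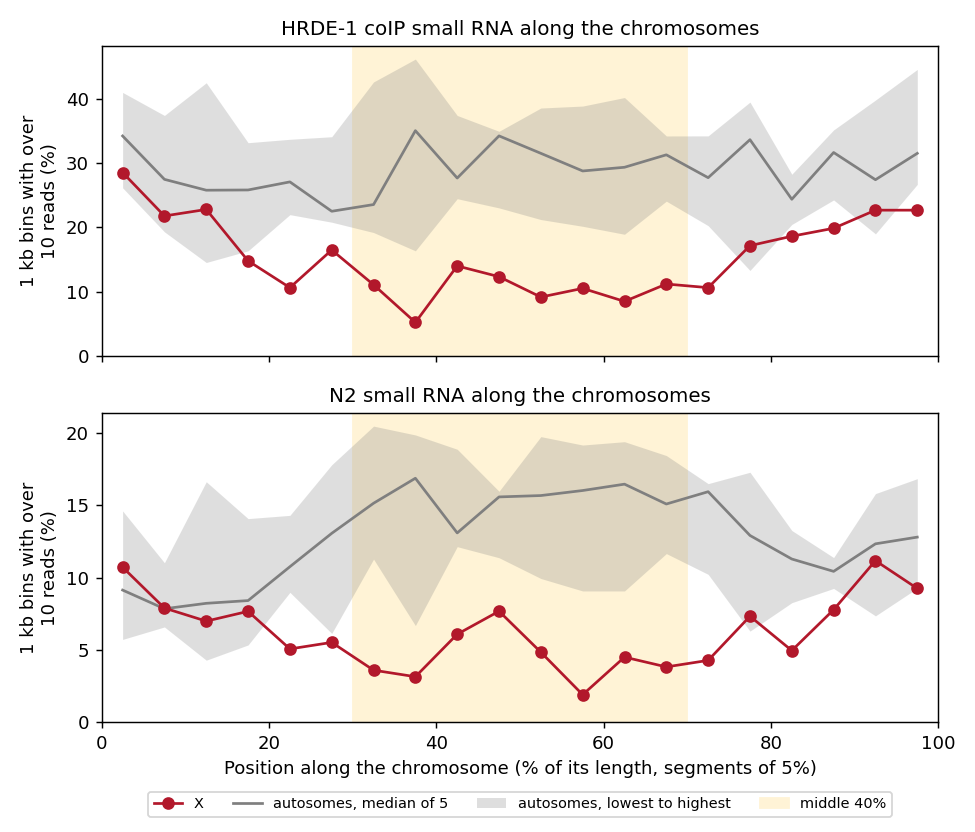
Share of 1 kb bins (%) with over 10 reads in 20 segments of 5% of chromosome length, for the HRDE-1 coIP (upper panel) and N2 (lower panel). The red line is X, the grey line the median of the 5 autosomes and the grey band their lowest to highest value; X runs under the band throughout the shaded middle in both panels, lies within it in the first 3 segments and is under it again in the last, with 28.6% of coIP bins in the first segment, 5.19% in the eighth and 22.7% in the last.

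The 18 tiles of 1 Mb show where along X the signal was. From the left end, the first tile held 9.34% of the coIP signal of X and 2.92% of its N2 signal, and the second held 10.1% and 3.15%. The third held 3.46% of the coIP and 17.98% of N2, the reverse order, with the bins at 2431001 and 2435001 alone holding 7.78% and 6.21% of the N2 signal of X. The fourth, 3 to 4 Mb, held 13.3% of the coIP and 2.62% of N2, the largest ratio of any tile at 6.43 after scaling to the libraries. These 4 tiles make up most of the left arm, and in 3 of them the coIP share was several times the N2 share.

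From 6 to 13 Mb each tile held between 0.742% and 4.45% of the coIP signal of X. The poorest was 10 to 11 Mb, with 0.742% of the coIP and 0.698% of N2, 12 bins over 100 coIP reads and 2 bins over 100 N2 reads. The longest stretch of X without a bin over 100 coIP reads lay partly in it, from 9938001 to 10391000, and was 453 kb long, against 194 to 340 kb for the longest such stretch on each autosome. The tile at 9 to 10 Mb held 2.23% of the coIP and 6.39% of N2, of which 54.4% was 1 bin.

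The right arm again was rich. The tile at 13 to 14 Mb held 8.44% of the coIP and 26.1% of N2, with 81.7% of its N2 signal in the single bin at 13144001. Without that bin its coIP over N2 ratio was 2.08, where it was 0.411 with it. The tile at 16 to 17 Mb held the most coIP signal of any, 14.7%, with 10.8% of N2, and 30 bins over 100 N2 reads, also the most. With the library sums, 14 of the 18 tiles had a larger share of the coIP library than of N2, and 16 when each tile's highest N2 bin was left out. Some of the 14 were close to even, with ratios of 1.01 at 8 to 9 Mb, 1.32 at 7 to 8 Mb and 1.35 at 10 to 11 Mb. Another scaling shifts all tiles alike and can change these counts, which were not repeated under other scalings. In 4 tiles 1 bin carried more than 50% of the N2 signal, and in 0 tiles did 1 bin carry that much of the coIP.

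**Figure D2:**
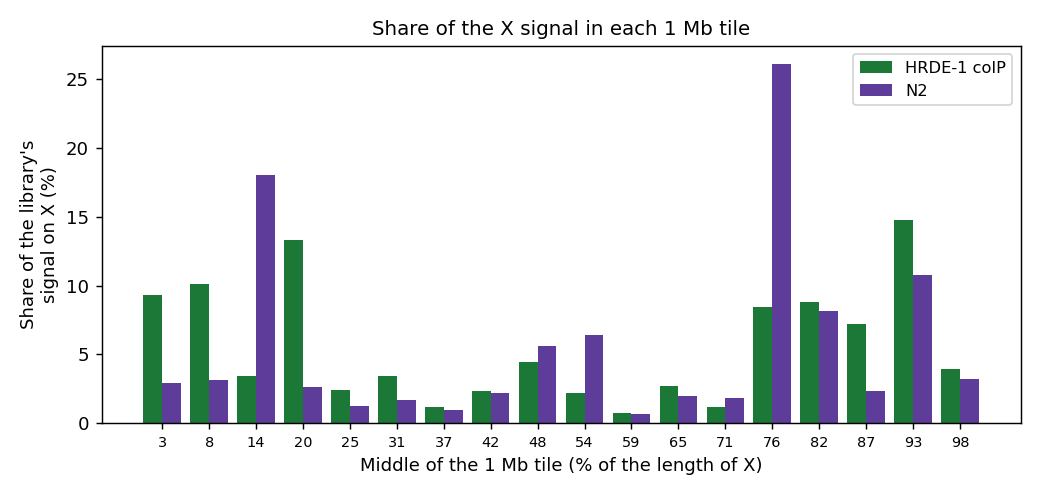
Share (%) of the coIP signal of X and of the N2 signal of X in each of the 18 tiles of 1 Mb, placed by the middle of the tile in % of the length of X, with the floor subtracted. Coloured bars are the 2 libraries, coIP left of N2; the 2 tall N2 bars, 17.98% and 26.1%, rest on a few bins, while the coIP bars are high at both ends.

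The coIP signal of X was held by fewer bins than that of any autosome. On X 69 bins made up 50% of the coIP signal, against 93 to 169 bins on single autosomes, and the top 1% of X bins held 67.7%, against 46.0% to 58.95%. In N2 8 bins made up 50% of the signal of X, within the range of 2 to 48 over the autosomes. Of 178 windows of 100 kb on X, the 10 richest in coIP signal held 36.8% of its coIP signal and 8.12% of its N2 signal, and all 10 lay in the arms. Since the windows were ranked by coIP signal, their lower N2 share follows in part from the choice. The richest, 13300001 to 13400000, had 5.42% of the coIP signal of X in 2 bins over 100 coIP reads, whereas the window 200001 to 300000 spread 4.11% over 27 such bins.

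Ratios per bin were taken as log2 of coIP over N2 after scaling each library to 1000000 and adding 0.121 ppm, the smallest scaled value. A bin counted as measured where the mean of both libraries reached 0.351 ppm, which 8222 X bins did, or 46.4%, against 48.7% to 69.9% of autosome bins. Of these, 1691 (20.6%) passed the 4-fold rule upward, with the coIP higher, and 842 (10.2%) passed it downward. Over all 58910 measured bins on the 6 chromosomes, 19.4% were higher and 9.04% lower, so that by these counts X was near the background. Without the 10 highest bins of each library, 1098 X bins were higher and 1986 lower. A scaling to the median ratio of bins with reads in both libraries gave 1252 higher and 1092 lower, and the deposited values taken without any scaling gave 2348 and 432. The share of higher bins among the calls on X was 66.8% with the library sums and 35.6%, 53.4% and 84.5% with these other scalings. The median log2 ratio of all measured bins, 0.73 with the library sums, was 0.13, 0.32 and 1.29 with them. Which side holds more bins therefore depends on the scaling. It also depends on the minimum, which is set on the mean of both libraries, so that a bin with coIP signal alone can pass. With a minimum of 1 N2 read instead, 781 X bins were higher and 842 lower. The 1691 higher bins of X held 78.3% of its coIP signal and 7.77% of its N2 signal, and the 842 lower bins held 3.20% and 79.2%. On all autosomes together the higher bins held 65.2% and 7.84%, and the lower bins 2.99% and 74.2%. Bins were called by their ratio, so this contrast follows in part from the rule.

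The arms and the middle of X differed in their ratios. The median log2 ratio of measured bins was 0.9996 in the left arm (0.94 to 1.05, order-statistic interval with bins taken as independent), 0.85 in the right arm (0.73 to 0.98) and -0.14 in the middle (-0.23 to 0.13). The arms together had 0.95 and autosome arms 0.95, and the middle was below the middle of every autosome (0.19 to 0.54). With a minimum 10 times higher this order turned, since the middle of X had 1.63 and the autosome middles 0.55 to 0.83. In the arms 1223 of 5333 measured bins were higher (22.9%) and 423 lower (7.93%). In the middle 468 of 2889 were higher (16.2%) and 419 lower (14.5%). The difference between arms and middle of X was 1.09, but 0.25 with that higher minimum, 0.14 with no minimum and 0.39 with a pseudocount 10 times larger, so its size depends on these choices.

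Among the better measured bins X had more extreme ratios than any autosome in both directions. With a minimum 10 times as high, 1959 bins of X were left, of which 898 were higher (45.8%) and 335 lower (17.1%). The background of all chromosomes at that minimum was 32.7% higher and 11.8% lower, and the single autosomes ran from 27.2% to 33.96% higher and from 8.77% to 14.7% lower. The gap was widest in the middle. There 43.5% of bins on X were higher and 26.3% were lower, against 19.9% to 22.9% and 9.41% to 16.5% over the middles of the 5 autosomes. In the arms 46.7% of bins on X were higher and 13.6% were lower, closer to the autosome arms at 32.0% to 44.5% and 7.49% to 13.3%. This minimum is set on the mean of coIP and N2, so a bin with a large value in 1 library alone can pass it.

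At like N2 signal, X differed from the autosomes in a way that depended on how strong the N2 signal was. All bins, measured or not, were grouped by N2 reads as under 0.5, 0.5 to 3, 3 to 10, 10 to 30, 30 to 100 and over 100. Averaged over the groups by their number of X bins, the median log2 ratio of X minus that of the autosomes was -0.22. In the 3504 X bins with 0.5 to 3 N2 reads the median was -0.50, below every autosome (-0.17 to 0.48), and in the 11499 X bins under 0.5 N2 reads it was -0.32, equal to the lowest autosome. These groups held 19.8% and 64.9% of X bins and so most of the weight of the average. The X bins under 0.5 N2 reads had a median of 0.06 coIP reads. A bin at the floor in both libraries has -0.39, so the -0.32 largely restates the floor. The same average for chromosome IV set against the other autosomes was -0.23, for chromosome V -0.13 and for chromosome I 0.28. The average of X was therefore within the range of single autosomes.

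In the group of 10 to 30 N2 reads the 520 X bins had a median of 74.6 coIP reads, against 35.1 to 44.9 over the autosomes, with medians of 16.3 N2 reads on X and 15.8 on the autosomes. Their median log2 ratio was 0.91, against 0.002 to 0.36 on the autosomes. On X 30.2% of these bins were at least 4-fold higher, against 14.7% to 17.5%. The higher median was that of the arms, with 1.10 on X against 0.07 to 0.89 on the autosomes. In the middle X had a median of -0.08, below the autosome middles at -0.04 to 0.22, with 29.5% of bins higher against 9.29% to 10.8% and 33.6% lower against 9.54% to 24.7%. In the group of 30 to 100 N2 reads the median of X, -0.01, was within the autosome range of -0.41 to 0.13, but X was below every autosome in both compartments. The X arms had 0.50 against 0.56 to 1.02, and the X middle had -1.91 against -1.15 to -0.36. Of all X bins in that group 37.1% were lower, against 23.1% to 33.0%.

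In the group of over 100 N2 reads the order turned. The 226 X bins had a median of 106.8 coIP reads, against 299.6 to 744.6 over the autosomes, with medians of 204.8 N2 reads on X and 187.8 on all autosomes. Their median log2 ratio was -2.96 (-3.54 to -2.04), against -1.51 on IV, the lowest autosome, and 0.88 on V, the highest. Of the 226 bins, 130 (57.5%) passed the 4-fold rule as lower, 46 as higher and 50 not at all. On single autosomes 34.4% to 44.8% were lower. All autosomes together had 0.05. Another scaling shifts X and autosomes alike and so says nothing of the gap between them.

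Strong N2 bins of the X middle were nearly all low in the coIP. Of 67 such bins in the middle 57 (85.1%) were at least 4-fold lower and 2 were higher, with a median log2 ratio of -4.79. The middles of single autosomes had medians from -2.35 to -1.60 and 43.4% to 53.3% lower. In the arms of X, 73 of 159 strong N2 bins were lower (45.9%) and 44 higher (27.7%), and the median of -0.54 was within the autosome range of -1.30 to 1.34. The share lower was just above that of every autosome's arms, 26.3% to 44.7%. The share higher was within their range of 18.4% to 33.1%. The left and the right arm were unlike here, with 28 of 85 bins lower in the left arm and 45 of 74 in the right arm. The group is not uniform in N2 level. Between 100 and 300 N2 reads, X had a median of -0.81 over 151 bins and the autosomes 0.73 over 868, and above 1000 N2 reads X had -5.27 over 35 bins and the autosomes -4.62 over 123.

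**Figure D3:**
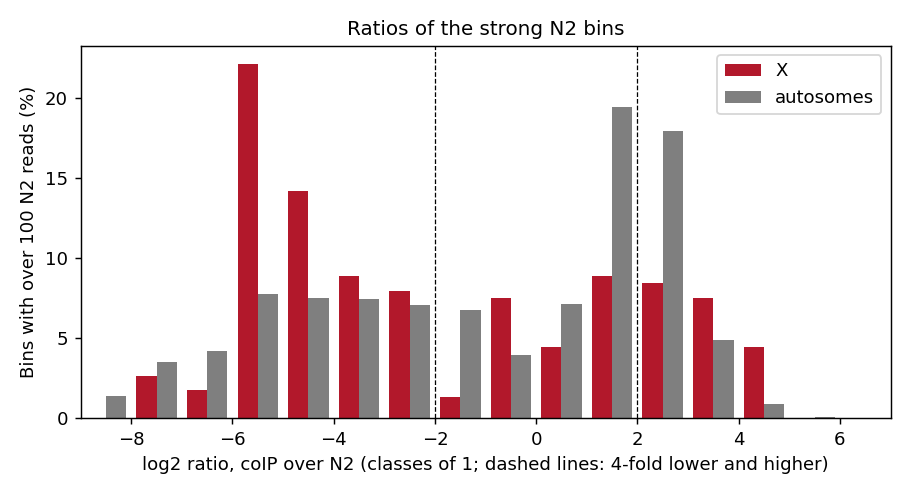
Distribution of log2 ratios (coIP over N2, classes of 1) among bins with over 100 N2 reads, as % of the 226 bins of X (red) and of the 1248 bins of the autosomes (grey), X left of autosomes in each class. X piles up between -6 and -4, past the dashed line of 4-fold lower, and the autosomes between 1 and 3.

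When bins were grouped by coIP signal instead, the average difference had the other sign, 0.12, and at over 10 coIP reads the median N2 signal of X was below that of every autosome. The 771 X bins with over 100 coIP reads had a median of 18.99 N2 reads, against 23.1 to 26.5 over the autosomes, and a median log2 ratio of 3.00, against 2.19 to 2.63. At 30 to 100 coIP reads the median N2 signal was 4.99 reads on X and 7.49 to 8.999 on the autosomes, and the log2 ratio 2.09 on X and 1.25 to 1.51. At 10 to 30 coIP reads it was 2.05 N2 reads on X and 3.01 to 4.00 on the autosomes, and the log2 ratio 1.48 on X and 0.81 to 1.09. In sums over all bins of a group the order was the other one at 10 to 30 and 30 to 100 coIP reads, where the coIP over N2 ratio, scaled to the libraries, was 0.527 and 0.435 on X, against 0.930 and 1.08 on the autosomes, and at over 100 coIP reads it was 1.62 on X against 0.99498. Both groupings select bins by the level of 1 library and read the other. Of the X bins over 100 coIP reads, 75 (9.73%) had at most 3 N2 reads, against 3.95% to 7.63% on the autosomes. A bin with 0 N2 reads allows up to 1.39 ppm.

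**Figure D4:**
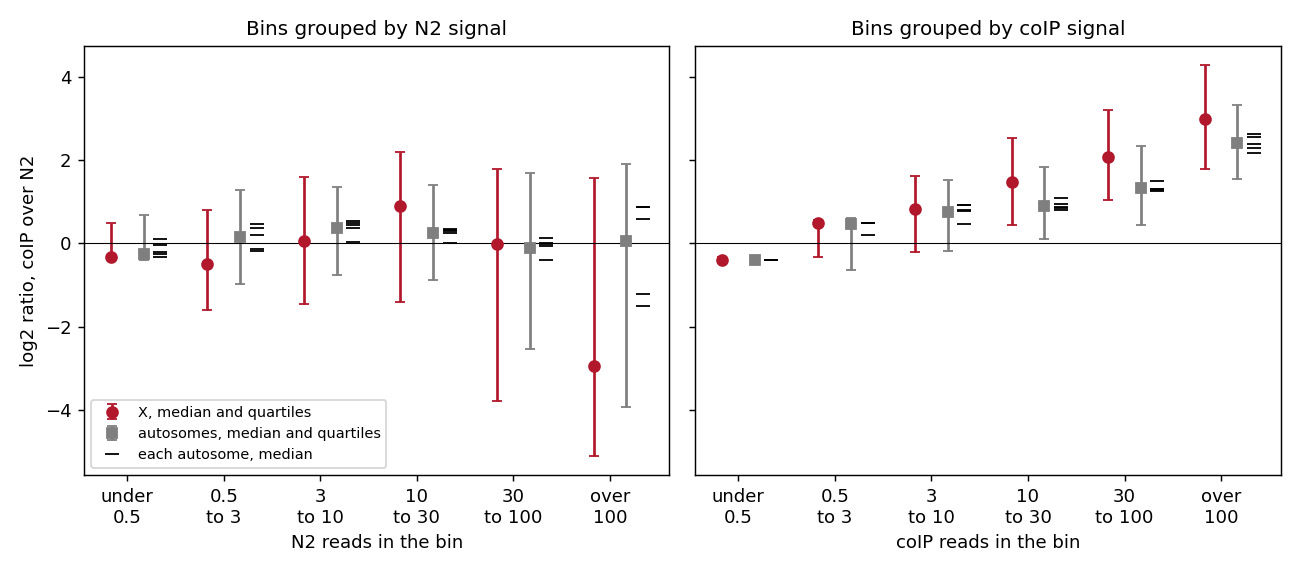
Median log2 ratio of coIP over N2 for bins grouped by N2 reads (left panel) and by coIP reads (right panel), for X (red, with quartiles) and all autosomes (grey, with quartiles), and the median of each autosome as black ticks. At over 100 N2 reads X lies at -2.96, below all 5 ticks, and at 10 to 30 N2 reads at 0.91, above them; in the 3 highest groups of coIP signal X lies above all 5 ticks.

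Strong bins of both kinds differed in shape. Among the 130 X bins over 100 N2 reads and at least 4-fold lower, the bin held a median of 90.98% of the N2 signal of the 5-bin window around it, and 67 held over 90%. Among the 534 X bins over 100 coIP reads and at least 4-fold higher, the bin held a median of 41.8% of the coIP signal of its 5 bins, and 34 held over 90%. The autosomes gave 82.3% and 42.3%. The 842 lower bins of X lay in 584 runs (gaps of up to 1 bin bridged), of which 70.5% were single bins. The 1691 higher bins lay in 810 runs, of which 51.7% were single bins and 96 were 5 kb or longer. On the autosomes 59.6% to 69.2% of lower runs and 50.6% to 60.5% of higher runs were single bins.

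The highest coIP run of X, 13396001 to 13398000 in the right arm, was made of 2 bins. They had 2694 and 5269 ppm in the coIP, against 98.6 and 411.7 ppm in N2. The second of them was the highest coIP bin of the whole table. The run had a coIP over N2 ratio of 15.5 (14.6 to 16.5) in read equivalents, and it held 5.39% of the coIP signal of X, nearly all of the 5.42% of its 100 kb window.

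In the left arm, 3920001 to 3924000 had 482.9, 1722, 607.8 and 1442 ppm in its 4 coIP bins, against 17.9, 89.99, 33.3 and 64.6 ppm in N2. All 4 bins were high in the coIP, and the ratio of the run was 20.6 (18.8 to 22.7). The run 3291001 to 3296000 was instead almost 1 bin, with 3745 of its 4260 ppm in the bin at 3294001, against 274.1 of 326.0 ppm in N2, and a ratio of 13.0 (12.1 to 14.02). Also in the left arm, 3027001 to 3031000 had 2998 ppm in the coIP against 182.6 ppm in N2, a ratio of 16.4 (14.8 to 18.1).

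Nearest to the left tip, 235001 to 242000 had 7 bins of 205.8 to 798.0 ppm in the coIP, against 28.9 to 121.5 ppm in N2. It was the broadest and the least enriched of the 8 strongest runs, with a ratio of 5.53 (5.19 to 5.90). In the right arm, 16790001 to 16795000 had 5196 ppm in the coIP against 416.6 ppm in N2, with 2074 and 3084 ppm in 2 of its 5 coIP bins and 135.3 and 278.0 ppm in the same N2 bins, and a ratio of 12.4 (11.6 to 13.3). The runs 15256001 to 15259000 and 14373001 to 14377000 had 3299 and 2748 ppm in the coIP, against 213.6 and 131.9 ppm in N2, with ratios of 15.4 (14.01 to 16.9) and 20.8 (18.5 to 23.5). Together the 8 runs held 22.5% of the coIP signal of X and 2.12% of its N2 signal, a contrast that follows in part from their choice. Of the 8, 4 lay in each arm and 0 in the middle.

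The 8 runs with the largest ratios were of another kind. They had 110 to 874 ppm in the coIP and rested on 1.12 to 13.0 N2 read equivalents, and 3 of them lay in the middle. The strongest was 7272001 to 7281000 in the middle, whose 9 bins had 282.7, 182.6, 106.7, 5.75, 5.65, 21.3, 202.5, 19.4 and 47.95 ppm in the coIP, while its highest N2 bin had 2.95 ppm and 5 of its N2 bins were at the floor. Its ratio was 146.5 (85.9 to 276.3). Also in the middle, 7501001 to 7503000 had 65.0 and 119.5 ppm in the coIP, against 1.09 and 0.64 ppm in N2, and 8133001 to 8137000 had 133.2 ppm in the coIP against 2.19 ppm in N2. Their ratios had counting intervals of 45.9 to 653.4 and 33.0 to 470.5. In the right arm, 14446001 to 14454000 had 378.2 ppm in the coIP, of which 220.7 ppm was 1 bin, against 2.07 ppm in N2, where the 8 bins had 0.195 to 0.644 ppm each. With 1.12 N2 reads its ratio had an interval of 148 to 32635. The others were 1251001 to 1256000 (46.9 to 442.5), 980001 to 984000 (45.2 to 232.5) and 377001 to 381000 (27.1 to 387.3) in the left arm and 14558001 to 14561000 (38.9 to 281.1) in the right arm. Since these runs were chosen for their ratios, the ratios are a description.

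The longest higher runs were broad and of moderate signal, and all 5 lay in the arms. The longest, 14117001 to 14134000, spanned 17 kb with 318.1 ppm in the coIP against 30.4 ppm in N2 and a ratio of 11.6 (8.91 to 15.2). Close to the left tip, 332001 to 348000 spanned 16 kb with 258.8 ppm in the coIP against 19.4 ppm in N2. The other 3 also lay in the left arm, with 1769001 to 1782000 at 273.6 ppm in the coIP against 22.4 ppm in N2, 1910001 to 1921000 at 2051 ppm against 98.7 ppm and 1996001 to 2006000 at 758.7 ppm against 64.96 ppm. The run from 1910001 was the strongest of the 5. Its 11 bins had 2.83 to 1101 ppm in the coIP, and its ratio was 21.1 (18.4 to 24.2).

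The 8 lower runs with the most N2 signal held 2.25% of the coIP signal of X and 53.4% of its N2 signal, and 5 of them were single bins. Here too the contrast follows in part from the choice of runs. The bin 13144001 to 13145000 had 951.0 ppm in the coIP against 24621 ppm in N2 and was 26.1-fold lower (25.3 to 26.9). It was the seventh highest N2 bin of the whole table. The bins at 2431001 and 2435001, 4 kb apart, had 773.1 and 897.8 ppm in the coIP, against 8987 and 7173 ppm in N2, and were 11.7-fold (11.3 to 12.1) and 8.05-fold (7.79 to 8.33) lower, the smallest differences of the 8. In the middle, 9071001 to 9074000 had 206.5 ppm in the coIP against 5714 ppm in N2 and was 27.9-fold lower (26.2 to 29.8), and 8149001 to 8157000 had 76.8 ppm against 3064 ppm and was 40.7-fold lower (36.6 to 45.3). In the right arm, 14744001 to 14745000, 16022001 to 16023000 and 17598001 to 17601000 had 250.3, 115.2 and 54.5 ppm in the coIP, against 5059, 4658 and 2371 ppm in N2. They were 20.4-fold (19.2 to 21.6), 40.8-fold (37.5 to 44.5) and 44.1-fold (38.96 to 50.1) lower. All 8 runs kept coIP signal above the floor.

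**Figure D5:**
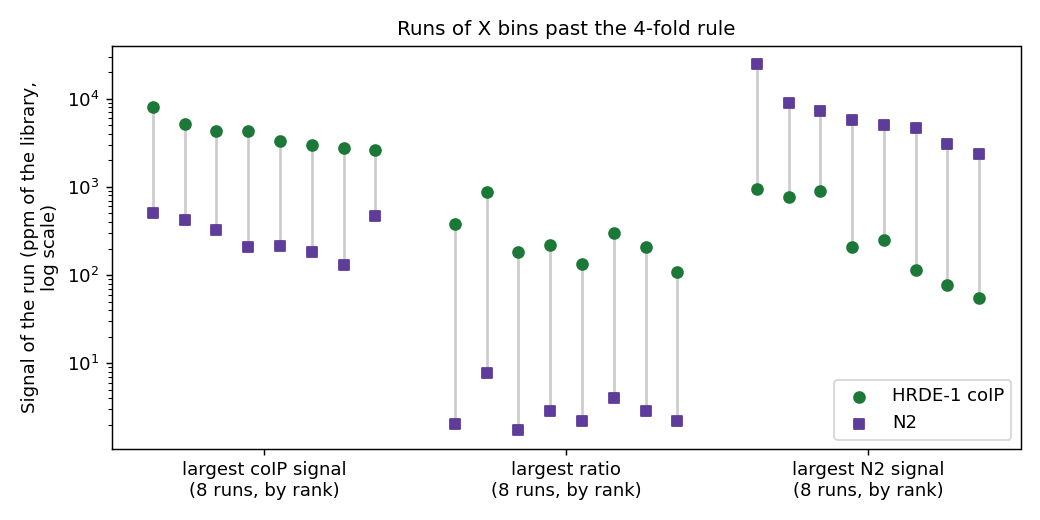
Signal in ppm of the library (log scale) of 3 lists of 8 runs of X bins, in the coIP (circles) and N2 (squares), ordered by rank within each list. The left list lies at 2592 to 7963 ppm in the coIP, the middle list combines 110 to 874 ppm in the coIP with 1.74 to 7.67 ppm in N2, and the right list has N2 above coIP.

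X carried almost none of the authors' marks for targets of germline nuclear RNAi. The deposited table marks bins as GRTS and GRH without spelling these out. In publications on HRDE-1, GRTS denotes transcriptional silencing through nuclear RNAi in the germline and GRH the heterochromatin formed through it. In the authors' deposited table, 0 of 191 GRTS bins were on X, where single autosomes had 10 to 84, and 3 of 215 GRH bins were on X, where single autosomes had 32 to 55. The sources used here do not say how bins were marked. The 3 GRH bins lay close together near the left tip. The bin at 214001 had 5.71 ppm in the coIP against 3.16 ppm in N2, that at 251001 had 5.71 against 4.30 ppm, and that at 255001 had 55.8 against 28.3 ppm. Their log2 ratios of 0.83, 0.40 and 0.98 were under the 4-fold rule, and none of the 8 strongest coIP runs of X held a marked bin. With only 3 marked bins on X, little can be read from this.

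X supplied strong coIP bins without marks, and so did the autosomes. The autosomes had 4970 bins over 100 coIP reads, where the whole table marks 191 GRTS and 215 GRH bins. Among bins over 100 coIP reads, 69.3% on X and 62.3% on the autosomes were at least 4-fold higher. Among bins over 100 N2 reads, 57.5% on X and 39.0% on the autosomes were at least 4-fold lower. Of the 100 highest coIP bins, 17 were on X, 16 of them at least 4-fold higher and 16 in its arms. Of the 1000 highest, 154 were on X, 132 of them higher and 128 in its arms. Of the 100 highest N2 bins, 20 were on X, of which 19 were at least 4-fold lower and 0 higher. For comparison, X has 17.7% of all bins. The calls among the autosome bins of these lists were not counted. Very strong N2 bins were mostly lower on the autosomes too. Above 1000 N2 reads, 95 of 123 autosome bins (77.2%) and 33 of 35 X bins (94.3%) were at least 4-fold lower.

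In the authors' deposited table, the p-value was 0.05 or less at 1625 X bins with a higher scaled value in the coIP (9.17%) and at 627 with a lower one (3.54%), where over all 100257 bins the shares were 12.6% and 4.82%. The authors' deposited table gave single autosomes 10.7% to 15.9% higher and 3.86% to 6.84% lower. These shares are over all bins, empty ones included, and measured bins made up 46.4% of X and 61.4% of the autosomes. Shares over measured bins alone were not computed. Of the X bins so chosen from the authors' deposited table, 1257 of the 1625 also passed the 4-fold rule as higher and 540 of the 627 as lower. Of the autosome bins so chosen from the authors' deposited table, 7416 of 10968 and 3296 of 4208 did. Both rules compare the same 2 libraries, so such an overlap is no independent support. The middle of X had 414 such higher bins in the authors' deposited table, or 5.84%, against 11.4% in the arms of X. Measured bins made up 40.8% of the X middle and 50.2% of the X arms.

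Bins that share their reads with a copy elsewhere could show equal values, and few X bins did. Among bins with over 20 reads in both libraries, 4 of 514 X bins (0.778%) had the same pair of deposited values, to the 2 decimals given, as another bin of the table, against 163 of 4439 autosome bins (3.67%). In all 4 cases the partner bins lay on autosomes. Of X bins above the floor, 70.6% in the coIP and 48.9% in N2 were not within 0.0055 of a whole number of reads, against 67.9% to 74.5% and 42.5% to 52.8% over the autosomes. The middle of X was the exception in N2, with 41.6% against 30.8% to 40.4% over autosome middles.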

How the data were processed

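Small RNA of young adult hermaphrodites was sequenced in 1 HRDE-1 coIP library and 1 N2 library, cloned without the need for a 5′ monophosphate, per the labels' protocols. The authors deposited 1 signal (coverage) value for each library in each 1 kb bin, and a p-value for each bin whose method the sources do not state. Bowtie 0.12.7 is named, per the submitters' processing notes. Build, read filters and the total used for normalising are not stated in the sources. The values put 1 read at 0.232 in N2 and 0.169 in the coIP above a floor of 0.1.

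With Python 3.11.15, numpy 2.4.6, pandas 2.3.3 and scipy 1.17.1, each column was scaled to 1000000 of its sum over all chromosomes. Shares and ratios of runs used read equivalents with the floor subtracted. The 4-fold rule was checked on simulated whole counts with Poisson noise, unlike the fractional deposited values. For the runs and the grouping by N2 signal, only the computation was checked, on made-up inputs with a known answer. Named were the 8 higher runs with most coIP signal, the 8 multi-bin ones with the largest ratio, the 8 lower runs with most N2 signal, the 5 longest higher runs, all marked bins and the highest bin of each library. Alternatives were other scalings, pseudocounts, minimums, folds, arm widths and sets of autosomes. The bins, lists and rules were chosen with earlier results of these data known.

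The bins of I and V end before the last genes annotated on those chromosomes in WBcel235, so the file's build was not matched to that reference. No gene or sequence was assigned to a bin, and positions are those of the file, counted from 1.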

Additional observations from a re-analysis of the deposited data

How the results depend on the processing

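Without the 10 highest bins of each library, X held 14.7% of the coIP and 15.7% of N2, its arms 82.9% and 74.3% of the signal of X, its higher and lower bins were 1098 and 1986, and its median log2 ratio was 0.053. Scaled to the median ratio, X had a median of 0.25. With a pseudocount 10 times larger, higher and lower bins were 846 and 307, the median 0.31, arms minus middle 0.39 and X minus autosomes at like N2 signal -0.11. With one 10 times smaller, lower bins were 1662 and that difference -0.27. It reversed to 0.12 when matched on coIP signal and was -0.28 with V left out. Leaving out I, II, III or IV kept it between -0.25 and -0.20. At a minimum 10 times higher, the counts were 898 and 335, the median 1.83 and arms minus middle 0.25. With no minimum the median reversed to -0.32, near the -0.39 of a bin at the floor in both libraries, and arms minus middle was 0.14. With a minimum of 1 N2 read the median reversed to -0.11 and 781 bins were higher. The 2-fold rule gave 3648 and 2211, the 8-fold rule 786 and 344. Arms as the outer 20% and 40% held 66.1% and 90.6% of the coIP and 49.1% and 85.6% of N2 on X, with arms minus middle 0.89 and 0.73. With the floor kept in, X held 14.99% of the coIP and 11.9% of N2, and its arms 83.7% and 79.4%. Without fractional bins, which left 11.2% of the coIP and 6.18% of the N2 signal of X, X held 13.9% and 9.83% and its arms 74.8% and 49.4%. That check drops strong bins, since 11.4% of X bins over 1000 N2 reads passed as whole.

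Chosen after seeing the data were 2 settings. Without the highest N2 bin of X, X held 14.9% and 9.51%, and its arms 83.96% and 74.5%. With ratios of the deposited values, 432 bins were lower and the median was 1.21. All 29 named runs kept the 4-fold rule when scaled to the median ratio. The run 235001 to 242000 did so barely, with a log2 ratio of 2.01, against 2.47 with the library sums. The runs were not checked without the 10 highest bins of each library. Fold rules, minimums and arm widths act by their construction, and for the other changes the cause was not tested. No paired analysis was possible because coIP and N2 have a single library apiece. Depth limits the ratios of bins under 3 reads.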
